A study of Mus musculus with 6 samples.

Results

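The leukocyte integrins and adhesion molecules described here are 9 genes: Itgal, Itgam, Itgax and Itgb2, Itga4, Itga5, Itgb1 and Itgb7, and Icam1. They were chosen by name, and each was read from the transcript cluster (the probe group of one transcript) whose platform annotation gives that gene symbol alone. All 9 were found, each with 1 such cluster, among 22180 genes in all. RNA came from mouse myeloid cells of fetal liver origin, cultured with GM-CSF (a granulocyte and macrophage growth factor) at 1 ng/ml, and was hybridised to Affymetrix Mouse Gene 2.0 ST arrays. The 3 uninduced samples had no doxycycline, and the 3 induced samples had 1000 ng/ml doxycycline for 72 hours, which the labels equate with expression of PU.1, the myeloid transcription factor encoded by Spi1. The sources used here give neither strain nor genotype nor the construct that carries PU.1, and no group received doxycycline without PU.1 induction, so effects of the drug and of PU.1 cannot be told apart. Whether replicates A, B and C were separate cultures is not stated, so p-values reflect the spread among these samples alone, and that spread may be technical. Values are given in the order A, B, C throughout.

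Integrins are cell surface receptors made of an alpha and a beta subunit, and both chains must be made for the pair to reach the membrane. In leukocytes Itgb2 (CD18) pairs with Itgal (CD11a) to form LFA-1, with Itgam (CD11b) to form Mac-1, the complement receptor of phagocytes, and with Itgax (CD11c), a subunit of macrophages and dendritic cells. Itgb1 pairs with Itga4 into a receptor of Vcam1 and fibronectin and with Itga5 into the classical fibronectin receptor. Itgb7 is the other beta partner of Itga4, and Icam1 is a counter-receptor of LFA-1 and Mac-1. PU.1 is known from human myeloid cells as a factor that binds the promoters of the CD11b and CD18 genes. In GRCm38.p6, Itgam (128062640 to 128118491) and Itgax (128129526 to 128150657) lie close to each other on chromosome 7, which also holds Itgal (127296139 to 127335137). Itgb2 is on chromosome 10 (77530329 to 77565708), Itgb1 on chromosome 8 (128685654 to 128733579), Itga4 on chromosome 2 (79255426 to 79333114) and Icam1 on chromosome 9 (21015940 to 21028814). Itga5 (103344286 to 103366791) and Itgb7 (102215994 to 102233405) are both on chromosome 15.

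The proximal promoters of 3 members are shown because PU.1 is the factor that was induced: that of Itgam, the member with the largest measured difference above 0, and those of Icam1 and Itgb1, which had the highest and the lowest test statistic of the 9. RefSeq sequence of GRCm38.p6, from 250 bases before to 50 after the annotated start, was matched for 7 of the 9 genes, Itgal and Itgb2 not among them. Capitals mark the letters GAGGAA, a core sequence that PU.1 can bind, or their reverse complement TTCCTC.
Itgam (chr7:128062390-128062689, + strand): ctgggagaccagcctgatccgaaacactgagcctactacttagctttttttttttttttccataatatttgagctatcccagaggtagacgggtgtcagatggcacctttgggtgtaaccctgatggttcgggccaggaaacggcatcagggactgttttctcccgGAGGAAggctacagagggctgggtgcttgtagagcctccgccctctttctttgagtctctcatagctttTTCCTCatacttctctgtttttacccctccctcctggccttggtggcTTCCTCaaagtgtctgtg
Icam1 (chr9:21015690-21015989, + strand): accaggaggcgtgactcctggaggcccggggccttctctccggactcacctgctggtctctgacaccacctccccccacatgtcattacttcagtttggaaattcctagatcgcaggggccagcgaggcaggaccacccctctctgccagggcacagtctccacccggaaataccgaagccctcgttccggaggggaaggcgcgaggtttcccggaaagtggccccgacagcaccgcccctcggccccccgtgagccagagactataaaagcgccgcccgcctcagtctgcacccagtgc
Itgb1 (chr8:128685404-128685703, + strand): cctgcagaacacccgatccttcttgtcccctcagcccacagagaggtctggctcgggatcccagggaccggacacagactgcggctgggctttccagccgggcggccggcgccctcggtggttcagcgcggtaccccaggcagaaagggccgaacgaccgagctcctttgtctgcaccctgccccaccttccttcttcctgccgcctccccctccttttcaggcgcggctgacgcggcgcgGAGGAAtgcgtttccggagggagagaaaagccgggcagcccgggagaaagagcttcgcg
The Itgam window held 3 matches, 1 on the forward and 2 on the reverse strand, of which the middle one lay 15 to 10 bases before the annotated start. The Itgb1 window held 1 match and the Icam1 window none. Of the 7 promoters 4 held a match, those of Itgam, Itgb7, Itga5 and Itgb1, and of 32851 promoters of the same length 28.3% did. The window matched for Itgb7 (chr15:102231886-102232185) lies inside the gene span given above and not at either end of it. A match in these letters is a description of the sequence and not a binding site.

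Over all transcript clusters, arrays of 1 group had a Pearson r of 0.973 to 0.988 with each other, and arrays of different groups one of 0.942 to 0.991. A background limit was set on each array at the 95th percentile of 1390 olfactory and vomeronasal receptor genes. It was 7.37, 7.05 and 7.34 on the uninduced arrays and 7.39, 7.99 and 7.86 on the induced arrays. A value below the limit of its own array is in the range of background. Spi1 itself was higher in 3 of 3 induced samples by 0.31 on the log2 scale (SE 0.12, limma adjusted p = 0.152). Of 10 general myeloid markers 7 lay above background on at least 2 uninduced arrays and 8 on at least 2 induced arrays, while Ptprc, which encodes the leukocyte antigen CD45, and Csf1r were below it on all 6. At a limma adjusted p under 0.05, 5 of the 10 were higher and 0 lower, beside 0.374% and 1.05% of all genes. Ptprc was among them, with a difference of 1.24 (SE 0.19, limma adjusted p = 0.0106), but its call was lost after cyclic loess (1.04, adjusted p = 0.0656). No measured marker of T cells, B cells, erythroid cells, megakaryocytes or fibroblasts reached the background limit on 2 arrays of a group. Of the lists for dendritic cells, NK cells, mast cells and hepatocytes 1 marker each did (Cd209a, Prf1, Kit and Apoa1), and of that for endothelial cells 2 (Kdr and Pecam1).

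None of the 9 genes passed the test of induced against uninduced cells. At a limma adjusted p under 0.05, 0 members were higher and 0 lower, where 0.374% of all 22180 genes were higher and 1.05% lower. At an unadjusted p under 0.05, 2 members were above 0 (Itgam and Icam1) and 2 below it (Itgb2 and Itgb1), against 11.4% and 16.9% of all genes. The measured differences ran from -0.44 to 0.60 on the log2 scale, with a median of -0.0068 beside 0.058 for all genes. The groups did not overlap for 3 of the 9, Icam1 with the induced samples above (16% of all genes) and Itgb2 and Itgb1 with the induced samples below (15.4% of all genes). In RNA from a whole culture, fewer cells of a type and less RNA per cell cannot be told apart.

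**Figure D1:**
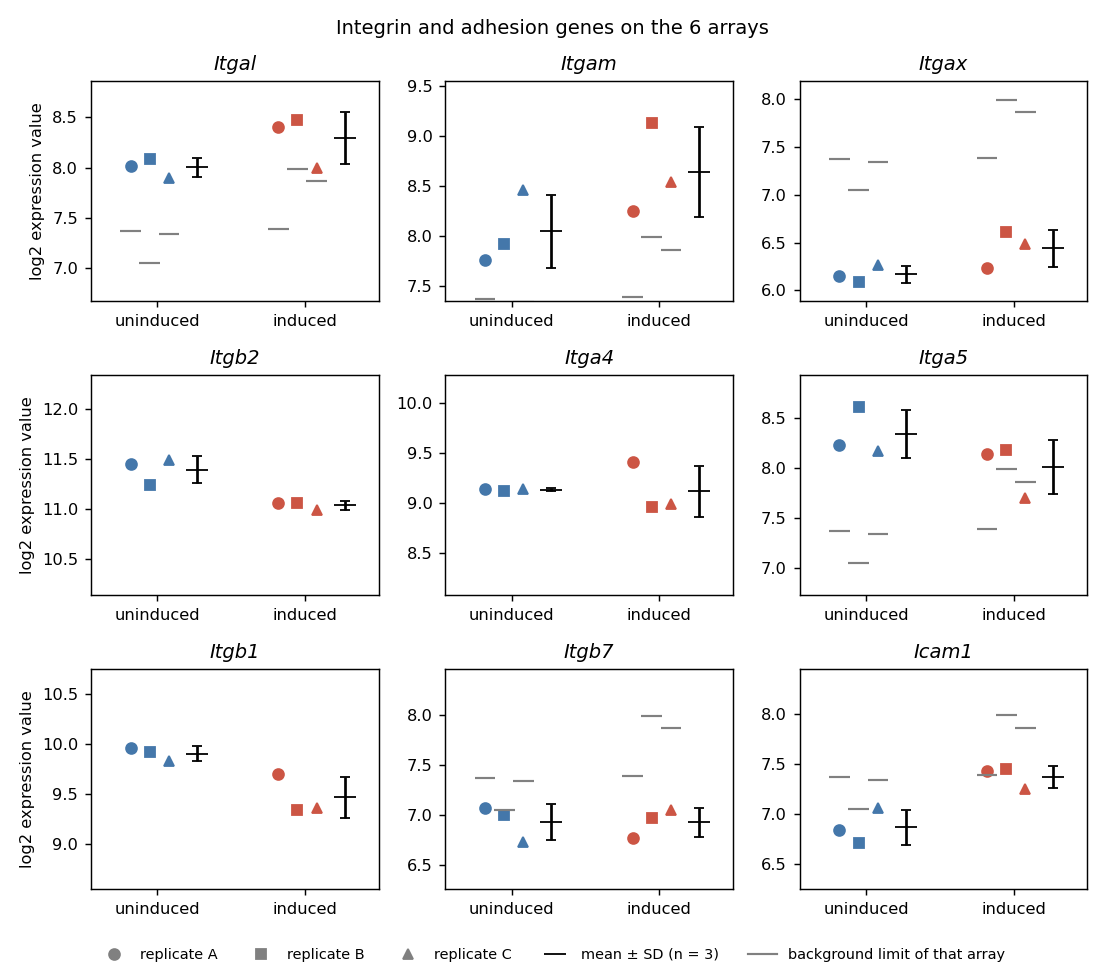
Log2 expression values (y axis) of the 9 genes in the 3 uninduced (blue) and 3 induced (red) samples, each panel on its own range, with circles, squares and triangles for replicates A, B and C, mean ± SD beside them and a grey line at the background limit of each array (left out where it lies far below the values). Icam1 was higher, and Itgb2 and Itgb1 were lower, in every induced sample than in any uninduced one, while Itgax and Itgb7 lay below the background limit on all 6 arrays.

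Itgb2, the beta chain shared by the leukocyte integrins, was far above the background limit on all 6 arrays. It was at 11.45, 11.24 and 11.50 on the uninduced arrays and at 11.06, 11.07 and 10.99 on the induced arrays. All 3 induced values lay below the lowest uninduced one, and the induced samples were close together (SD 0.043, n = 3). The difference was -0.36 (SE 0.13, 95% interval from -0.64 to -0.072, limma adjusted p = 0.134), or 1.28-fold lower.

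The alpha chains that pair with it had measured differences on the other side of 0. Itgam was at 7.77, 7.92 and 8.46 on the uninduced arrays and at 8.26, 9.14 and 8.54 on the induced arrays. The groups overlapped, because uninduced C stood above induced A, and induced B was the highest of the 6. The difference was 0.60 (SE 0.24, 95% interval from 0.069 to 1.12, limma adjusted p = 0.152), or 1.51-fold, larger than that of 98.1% of all genes. It was 0.79 (adjusted p = 0.0352) without induced A, but that setting called 9.01% of all genes higher and 15.9% lower. Without uninduced C it was 0.80 (adjusted p = 0.152), and it was 0.45 (adjusted p = 0.251) without uninduced A and 0.35 (adjusted p = 0.410) without induced B.

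Some markers of mature phagocytes were higher in the same comparison. The mean log2 value of 7 measured macrophage markers ran from 6.65 to 6.84 on the uninduced and from 7.57 to 7.97 on the induced arrays, and that of 8 neutrophil markers from 8.89 to 8.91 and from 9.53 to 10.05. These means include markers in the range of background. Of the macrophage markers 1 lay above it on at least 2 uninduced and 3 on at least 2 induced arrays, and of the neutrophil markers 5 and 7. The limma test called 3 macrophage and 4 neutrophil markers higher and 0 lower, beside 0.374% and 1.05% of all genes. Among the neutrophil markers not called were Camp (0.27), Ngp (0.021) and Ly6g (-0.27, in the range of background). Their part in the values of the integrin genes was not tested.

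Itgal, the alpha chain of LFA-1, was at 8.02, 8.09 and 7.90 on the uninduced arrays and at 8.40, 8.48 and 7.99 on the induced arrays. Induced A and B stood above all uninduced samples and induced C among them. The difference was 0.29 (SE 0.15, 95% interval from -0.051 to 0.63, limma adjusted p = 0.222), and 0.44 (adjusted p = 0.330) without induced C. Itgax was at 6.15, 6.09 and 6.27 and then at 6.23, 6.61 and 6.49, so CD11c transcript was in the range of background in both groups and no fold is given. Its measured difference was 0.27 (SE 0.14, limma adjusted p = 0.211).

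Among the subunits that bind matrix, Itgb1 was lower in each induced sample. It was at 9.96, 9.92 and 9.82 on the uninduced arrays and at 9.70, 9.34 and 9.35 on the induced arrays. The groups did not overlap, with induced A nearest to the uninduced samples. The difference was -0.44 (SE 0.14, 95% interval from -0.75 to -0.13, limma adjusted p = 0.120), or 1.36-fold lower, and -0.56 (adjusted p = 0.0193) without induced A, the setting with 15.9% of all genes called lower. Of the alpha chains that bind Itgb1, Itga5 was at 8.23, 8.61 and 8.17 and then at 8.14, 8.18 and 7.70. The groups overlapped, with induced A and B close to uninduced A and C, and induced C was below the background limit of its array. The difference was -0.33 (SE 0.17, 95% interval from -0.71 to 0.057, limma adjusted p = 0.222), and ran from -0.41 to -0.17 over the arrays left out in turn, nearest to 0 without induced C (-0.17) and uninduced B (-0.19).

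Itga4, which pairs with Itgb1 or Itgb7, was almost the same in the 3 uninduced samples and spread more in the induced ones. Its values were 9.14, 9.12 and 9.15 on the uninduced arrays and 9.41, 8.96 and 8.99 on the induced arrays. Induced A was the highest of the 6, and induced B and C were the lowest. The SD was 0.014 in the uninduced and 0.25 in the induced group (n = 3 each), and the difference was -0.017 (SE 0.15, 95% interval from -0.35 to 0.31, limma adjusted p = 0.936). Itgb7 ran from 6.73 to 7.07 on the uninduced and from 6.76 to 7.05 on the induced arrays, in the range of background on all 6, with a difference of -0.0068 (SE 0.14, limma adjusted p = 0.975).

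Icam1, the counter-receptor, had the strongest test statistic of the 9. It was at 6.84, 6.71 and 7.06 on the uninduced arrays and at 7.42, 7.44 and 7.24 on the induced arrays. Every induced sample was above every uninduced one, but the gene exceeded the background limit on 1 array alone, induced A. The limits of induced B and C (7.99 and 7.86) were higher than those of all other arrays. The measured difference was 0.50 (SE 0.14, 95% interval from 0.20 to 0.81, limma adjusted p = 0.101), larger than that of 96.6% of all genes, and no fold is given so near background. Without induced A it was 0.48 (adjusted p = 0.0451), the setting with 9.01% of all genes called higher.

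The differences of all genes depended on how bright a gene was, and the members fall on both sides of that trend. For genes with a mean log2 value of 6 to 7 the median difference was 0.19, and for those of 7 to 8 it was -0.036. For those of 8 to 9 it was -0.34, for 9 to 10 -0.37, for 10 to 11 -0.32, and for 11 or more -0.18. Of the 3287 genes with a mean of 8 to 9, 89.4% had a difference below 0, and Itgam and Itgal, at 0.60 and 0.29, were among the others. Itga5 at -0.33 lay close to the median of that band, Itgb1 at -0.44 near that of its own, and Itga4 at -0.017 above it. Itgb2 at -0.36 lay below the median of the brightest band, at whose lower end it stood, and near that of genes of 10 to 11. Itgax at 0.27 lay slightly above the median of genes of 6 to 7 and Itgb7 at -0.0068 below it. Icam1 at 0.50 lay above the median of genes of 7 to 8. The interquartile range over all transcript clusters was 2.40, 2.62 and 2.44 on the uninduced and 2.37, 2.17 and 2.21 on the induced arrays. Its part in the trend was not tested.

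**Figure D2:**
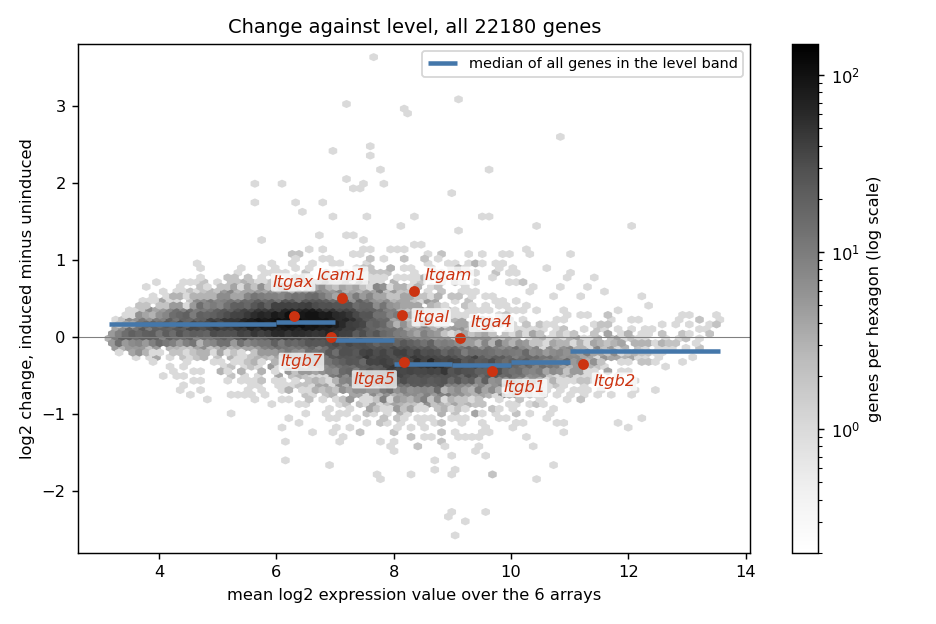
Log2 change, induced minus uninduced (y axis), against the mean log2 expression value over the 6 arrays (x axis) for 22180 genes, shaded by the number of genes per hexagon on a log scale, with the median of each level band in blue and the 9 members in red. Itgam (0.60) and Itgal (0.29) lie above the blue median of their band (-0.34), while Itga5 (-0.33) and Itgb1 (-0.44) lie near theirs.

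Cyclic loess, which removes differences between arrays that depend on the level, moved the differences of 7 members by more than 0.2 on the log2 scale. Itgb2 went from -0.36 to -0.078 and Itgb1 from -0.44 to -0.072 (limma adjusted p = 0.819 and 0.768), and their groups then overlapped. Itga5 went to -0.069, Itgax from 0.27 to 0.073, and Itga4 crossed 0 to 0.35 (adjusted p = 0.185). Itgal went to 0.54 (adjusted p = 0.128) and Itgam to 0.89 (adjusted p = 0.185), while Icam1 stayed near its deposited value at 0.45 (adjusted p = 0.147). After this step 3 members had groups that did not overlap, Itgal, Itga4 and Icam1, all with the induced samples above, against 10.6% of all genes. None passed the threshold there either, with 0.374% of all genes called higher and 0.532% lower.

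**Figure D3:**
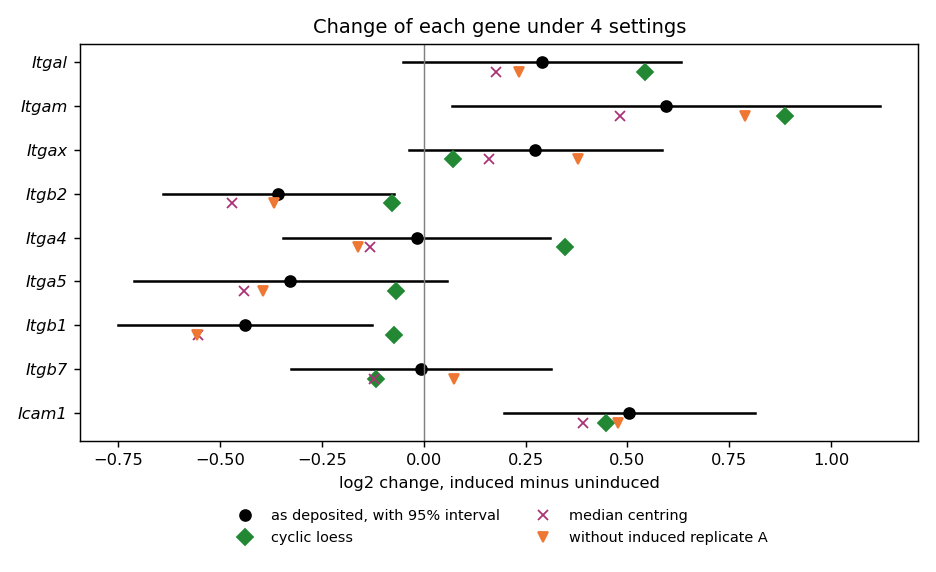
Log2 change, induced minus uninduced (x axis), of the 9 genes as deposited (black, with the 95% interval of the limma fit) and under 3 alternatives. Icam1 and Itgam stay above 0 under all 4 settings, whereas Itgb2 and Itgb1 move from -0.36 and -0.44 to -0.078 and -0.072 after cyclic loess.

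Whether subunits that share a partner, or the main beta chains, changed unequally was asked in 6 pairs, as the difference of 2 members' log2 values within each array. None of the 6 differed between the groups by an exact two-sided permutation test, in which 3 against 3 samples cannot go below p = 0.1. Unadjusted p-values were 0.3 to 0.9, and 0.45 to 0.9 after Benjamini-Hochberg adjustment over the 6 pairs. Itgam minus Itgal went from 0.047 ± 0.45 to 0.35 ± 0.44 (mean ± SD, n = 3 per group), a shift of 0.30 that ran from 0.15 to 0.56 over the arrays left out in turn, lowest without induced B or uninduced A and highest without uninduced C (0.55 without induced A). Itga5 minus Itga4 went from -0.80 ± 0.25 to -1.11 ± 0.29 (n = 3 per group), a shift of -0.31 that ran from -0.48 without induced B to -0.17 without uninduced B. Itgb2 minus Itgb1 shifted by 0.082, less than the SD of either group (0.18 and 0.19). The other 3 pairs hold Itgax or Itgb7, both below the background limit on all 6 arrays, which limits what their values can show about the change of those transcripts.

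Other genes of integrin adhesion were read from 4 lists. Of 18 measured other integrin subunits 1 fell and 0 rose, beside 1.05% and 0.374% of all genes. In the range of background on all 6 arrays were 12 of the 18. The one that fell was Itga6, a laminin receptor subunit, which read 10.20, 10.12 and 10.03 on the uninduced and at 9.45, 9.23 and 8.85 on the induced arrays. The groups did not overlap, with the induced samples below (15.4% of all genes). The difference was -0.94 (SE 0.16, limma adjusted p = 0.0206), which is 1.92-fold lower. The call was lost with cyclic loess (-0.57, adjusted p = 0.118), with quantile normalization (-0.72, adjusted p = 0.056) with the adjustment over all transcript clusters (adjusted p = 0.109) and without any 1 array other than induced A (adjusted p from 0.0555 to 0.0923).

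Of 14 measured matrix and plasma ligands of integrins 1 rose and 0 fell, beside 0.374% and 1.05% of all genes. The one that rose was Tgfbi, a secreted matrix protein, at 7.34, 7.22 and 7.40 on the uninduced and at 8.67, 8.61 and 8.15 on the induced arrays. It started near background, above the limit on 2 of 3 uninduced arrays. Every induced sample stood above the uninduced ones, as in 16% of all genes. The difference was 1.15 (SE 0.16, limma adjusted p = 0.00648), which is 2.23-fold, and with cyclic loess it was 1.35 (adjusted p = 0.00574). With the adjustment over all transcript clusters its call was lost (adjusted p = 0.0561).

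Of 18 measured counter-receptors and other leukocyte adhesion molecules, and of 27 genes of integrin activation and the adhesion complex, 0 passed the limma test. At an unadjusted p under 0.05, 0 of the first were above 0 and 4 below it, and of the second 1 and 7, beside 11.4% of all genes above 0 and 16.9% below. The list medians were 0.038 and -0.15, beside 0.27 for the other integrin subunits and 0.17 for the matrix and plasma ligands. In the range of background on all 6 arrays were 9 and 6 genes of these 2 lists, 12 of the other subunits and 10 of the ligands. Over all genes the median was 0.19 at a mean of 6 to 7 and -0.34 at 8 to 9, so the list medians are not comparable without regard to level. Cd47, which signals to phagocytes to spare a cell and gave the highest array values of its list, had a difference of -0.18 (SE 0.12, limma adjusted p = 0.299). Selplg, the P-selectin ligand on leukocytes, was at 11.65, 11.49 and 11.56 on the uninduced and at 11.27, 10.81 and 11.06 on the induced arrays. Selplg showed no overlap, with the induced samples below (15.4% of all genes). Its difference was -0.52 (SE 0.15, limma adjusted p = 0.102), and -0.64 (adjusted p = 0.0496) as the mean of its 2 transcript clusters, but -0.25 (adjusted p = 0.296) after cyclic loess. Rap1b, a small GTPase that switches integrins on, and Actn4, an actin crosslinker, gave the highest array values of the activation list, with differences of -0.13 (limma adjusted p = 0.490) and -0.15 (limma adjusted p = 0.454).

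**Figure D4:**
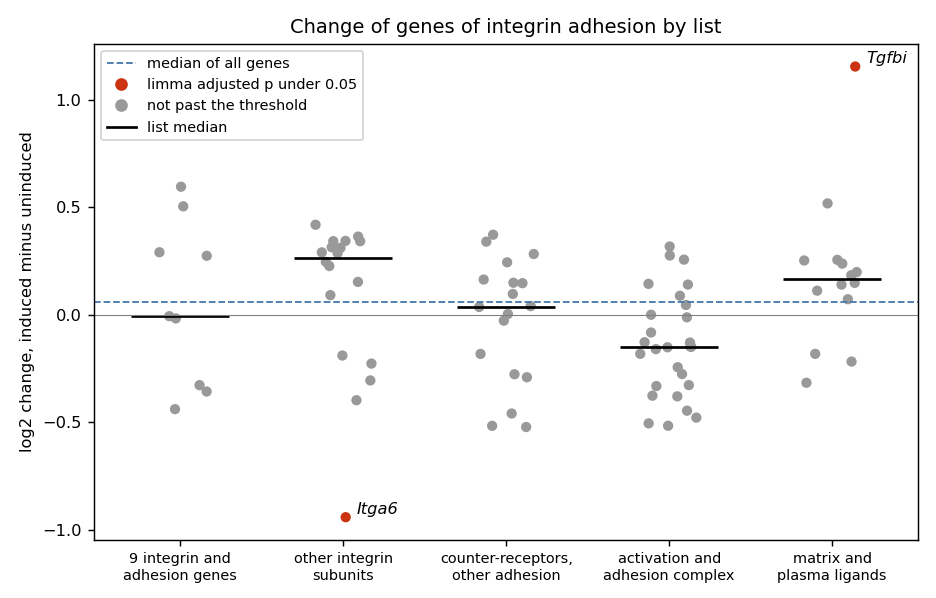
Log2 change, induced minus uninduced (y axis), of each gene of the 9 members and of the 4 lists of integrin adhesion genes (x axis, points spread sideways for sight), with list medians in black, the median of all genes as a dashed line and genes past a limma adjusted p of 0.05 in red. Itga6 (-0.94) and Tgfbi (1.15) are past the threshold, and none of the 9 members is.

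The genes whose pattern over the 6 arrays was most like that of Icam1, among 8759 above background on at least 3 arrays, were Slc52a3, Kcnn3 and Cd68 (Pearson r = 0.990, 0.987 and 0.976, 6 arrays). For Itgb1 they were Ruvbl2, Sesn2 and Layn (Pearson r = 0.998 for each, 6 arrays), among 8758. These are descriptions, picked as the highest of all values compared, over arrays that fall into the same pair of groups.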

How the data were processed

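The values are log2 expression values that the authors deposited, 1 for each of 41345 transcript clusters on 6 arrays. Per the submitters' processing notes, the tool was Partek and the build mm10; the sources used here give no version and no account of background correction, normalization or summary, and the log2 scale was read from the values (2.86 to 14.03). Samples were grouped by title. By GEO's platform annotation, whose names may be outdated, 23521 clusters had 1 symbol, 1814 several and 16010 were not listed; the cluster with the highest mean stood for a gene, which gave 22180 genes. The groups were compared by a two-sided limma 3.58.1 test (R 4.3.3; lmFit, eBayes; no covariate or filter on dim genes), with Benjamini-Hochberg adjustment over all of them and a threshold of 0.05. The test was tested on simulated data. These had independent noise for each gene and no trend with level, so they cannot show how the test deals with such a trend. Number of arrays limits the precision.

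The members and lists were chosen with earlier results of these data known. All 9 members were named, with list genes past the threshold, or the 2 brightest where none passed, and the 3 genes most like 2 members; Selplg is also named as a gene called under an alternative, and Csf1r and Ptprc as markers in background, picked after their values were seen. Alternatives were the replicate letter as a block, quantile normalization, cyclic loess, median centring, filters at the 25th and 50th percentile, trend with robust moderation, the mean of a gene's clusters, all clusters, a threshold of 0.01, and leaving out each array. Promoters came from RefSeq sequence of GRCm38.p6.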

Additional observations from a re-analysis of the deposited data

How the results depend on the processing

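No member was called under any setting but 1: without induced A, 2 members (Itgam and Icam1) were called higher and 1 (Itgb1) lower, so that over the arrays left out in turn the numbers ran from 0 to 2 and from 0 to 1. Of all genes, 83 higher and 232 lower became 45 to 1998 and 47 to 3535, the upper ends without induced A. They became 51 higher after median centring, 118 lower after cyclic loess, 36 and 44 with all transcript clusters, and 43 and 55 at a threshold of 0.01. No label says that the letters pair the samples, and deviations of same-lettered samples correlated at -0.31, -0.28 and 0.42; with the replicate block, 174 genes were higher and 425 lower, and 0 members. Among the lists, the number of other integrin subunits called lower was 0 after quantile normalization, cyclic loess or with all transcript clusters, and 0 to 2 over the arrays left out (higher 0 to 4). Counter-receptors and other adhesion molecules had 1 lower with the mean of transcript clusters, and 0 to 2 higher and 0 to 2 lower over the arrays left out; activation genes had 0 to 6 lower. Matrix and plasma ligands had 2 higher with trend and robust moderation, 0 with all transcript clusters, and 1 to 2 over the arrays left out. Over the arrays left out, the upper end for each list came without induced A, where 9.01% of all genes were called higher and 15.9% lower.

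Icam1, Itgam, Itgal, Itgax, Itgb2, Itgb1 and Itga5 kept their directions after quantile normalization, cyclic loess and median centring. They also kept them without each array in turn. The other alternatives leave the difference of any member they include as deposited, so they could not change a direction. Itga4 changed sign after quantile normalization (0.20) and cyclic loess (0.35), and ran from -0.16 to 0.063 over the arrays left out; Itgb7 ran from -0.11 to 0.074. Of the pairs, Itgb2 minus Itgb1 and Itgb7 minus Itgb1 shifted by 0.082 and 0.43 as deposited, and by -0.0056 and -0.046 after cyclic loess. Over the arrays left out, Itgb2 minus Itgb1 ran from -0.0048 to 0.19 and Itgax minus Itgal (-0.016 as deposited) from -0.19 to 0.15. The causes were not tested. Median centring moved the median of all genes from 0.058 to -0.056. Itgax and Itgb7 in all samples, and Icam1 on 5 arrays, lay in the range of background, which limits what their values can show.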
